A study of Rattus norvegicus with 2 samples.

Results

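The core circadian clock genes were followed in the hypothalamus of female Sprague Dawley rats before and at puberty. The list held 10 genes, Per1, Per2, Per3, Cry1, Cry2, Arntl, Clock, Nr1d1, Nr1d2 and Dbp, and was matched by gene name. Of these, 9 were found, with 11 transcripts, among 22314 gene names of the mRNA table. The name Clock was matched by no row, and Clock was not analysed here. Hypothalamic RNA was taken from prepubertal rats on postnatal day 25 and from pubertal rats in their first estrus on postnatal day 35. According to the methods 3 rats were used per stage. The tables hold 1 column per stage, how the rats were combined is not given in the sources used here, and each stage was therefore treated as 1 library. The files give no spread between rats, so the values of the libraries are set side by side without a p-value. The methods describe a fixed light-dark cycle but the hour of decapitation is not given in the sources used here, so for these genes the stage and the hour of collection cannot be told apart.

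The clock of a mammalian cell is a loop of transcription and feedback. BMAL1, encoded by Arntl, pairs with CLOCK and switches on the Per and Cry genes, whose proteins return to the nucleus and repress that pair. The REV-ERB receptors, encoded by Nr1d1 and Nr1d2, are switched on by the same pair and repress Arntl, so that Arntl runs in the opposite phase to Per, Nr1d1 and Dbp. DBP binds D-box elements and carries the rhythm to other genes. The suprachiasmatic nucleus of the hypothalamus holds the master clock, while cells in the rest of the hypothalamus and in glia run clocks of their own. A dissected hypothalamus thus contains many clocks, and in such bulk tissue fewer cells of a type and less RNA per cell cannot be told apart.

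The regulatory elements of this loop are short DNA motifs, and the windows that held one are shown because the members reach each other through them. The 250 bases before each gene start were taken from RefSeq (build GRCr8), which gave 9 windows for 8 of the 9 members, Arntl under its present symbol Bmal1. Both strands were searched for the E-box CACGTG, the D-box TTATGTAA or TTATGCAA, the core AGGTCA of the element shared by the ROR and REV-ERB receptors, and the cAMP response element TGACGTCA. No motif searched overlapped another in the windows shown. Each sequence is written 5′ to 3′ along the strand of the gene, and capitals mark the motif.
Per2, chr9:99496994-99497243, minus strand: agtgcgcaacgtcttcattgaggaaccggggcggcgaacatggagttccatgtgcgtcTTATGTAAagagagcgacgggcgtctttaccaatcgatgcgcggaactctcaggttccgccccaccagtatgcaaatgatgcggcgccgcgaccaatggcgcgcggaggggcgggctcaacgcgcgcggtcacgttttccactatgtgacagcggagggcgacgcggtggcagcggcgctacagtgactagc
Nr1d1, chr10:84229455-84229704, minus strand: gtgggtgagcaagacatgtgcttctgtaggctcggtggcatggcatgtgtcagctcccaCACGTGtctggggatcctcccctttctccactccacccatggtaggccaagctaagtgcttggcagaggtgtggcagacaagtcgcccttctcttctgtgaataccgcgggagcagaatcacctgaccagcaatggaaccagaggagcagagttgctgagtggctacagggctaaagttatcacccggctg
Nr1d2, chr15:9954784-9955033, plus strand: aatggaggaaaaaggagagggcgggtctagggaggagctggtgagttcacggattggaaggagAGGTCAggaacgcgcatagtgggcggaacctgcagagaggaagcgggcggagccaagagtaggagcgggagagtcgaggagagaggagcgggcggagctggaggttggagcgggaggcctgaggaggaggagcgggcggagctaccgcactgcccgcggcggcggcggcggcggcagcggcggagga
Arntl, chr1:176766078-176766327, plus strand: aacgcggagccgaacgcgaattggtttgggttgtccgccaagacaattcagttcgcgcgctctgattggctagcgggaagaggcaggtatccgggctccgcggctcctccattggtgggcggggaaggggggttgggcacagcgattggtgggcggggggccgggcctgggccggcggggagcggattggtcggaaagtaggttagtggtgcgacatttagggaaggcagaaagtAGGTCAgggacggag
Ciart, chr2:186112247-186112496, minus strand: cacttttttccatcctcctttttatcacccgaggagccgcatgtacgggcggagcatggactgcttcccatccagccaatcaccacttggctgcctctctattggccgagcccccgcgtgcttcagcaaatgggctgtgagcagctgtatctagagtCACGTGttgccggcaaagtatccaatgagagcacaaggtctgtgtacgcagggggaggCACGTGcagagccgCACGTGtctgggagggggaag
The Per2 window held a D-box, whose first base lay 192 bases before the start. The Nr1d1 window shown held an E-box at 191 bases before the start, and the other Nr1d1 window held none of the motifs. The Nr1d2 and Arntl windows each held the receptor core, at 187 and 15 bases before the start. Ciart, a repressor of the CLOCK and BMAL1 pair outside the 10 genes, is shown because its value differed most upward among the other clock genes described below. Its window held 3 E-boxes at 93, 35 and 21 bases before the start. Of the 8 members with a window, 1 had an E-box and 4 had any of the motifs. The windows of Dbp, Per1, Per3 and Cry2 held none. Whether a motif bears on a value was not tested. Among all 33469 windows of this length an E-box was found in 5.59%, a D-box in 1.60%, the receptor core in 14.1% and the cAMP response element in 1.59%. A match is a description of the letters and not of a bound site.

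FPKM is a fragment number divided by the length of the transcript and by the mapped fragments of the library, and by itself it hides the number of fragments behind a value. This number could be recovered. For transcripts of at least 600 nt that were the only one of their gene, low FPKM multiplied by the transcript length less the mean fragment length fell on multiples of a fixed step. In the prepubertal library 94.7% of 2555 values up to 20 fragments lay within 0.05 of a whole number, and in the pubertal library 94.5% of 2756 values. The fragments on mRNAs summed to 20200000 before puberty and 15800000 at puberty. All intervals below are 95% intervals from these fragment numbers. They cover counting error only, compare these libraries and not the stages, and say nothing about the spread between rats.

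**Figure D1:**
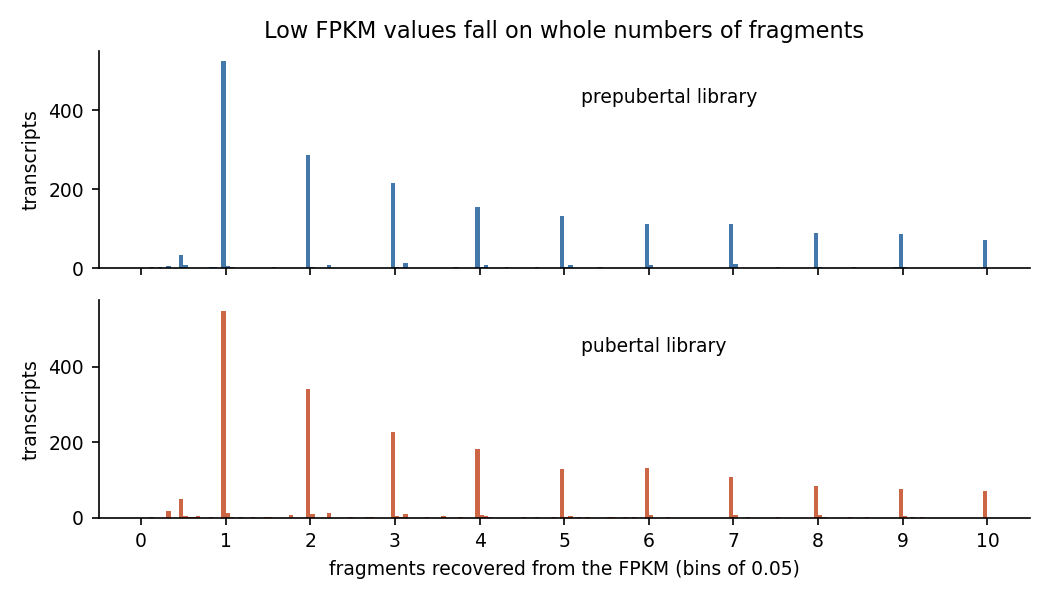
Number of fragments recovered from each low FPKM value in the prepubertal (top) and pubertal (bottom) library. The horizontal axis gives fragments in bins of 0.05 and the vertical axis the number of transcripts. The peaks stand on whole numbers, with 94.7% and 94.5% of values within 0.05 of one.

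Before puberty the levels of the 9 genes ran from 45.4 FPKM for Dbp to 3.03 FPKM for Per2, and at puberty from 60.2 to 3.90 FPKM for the same genes. All 9 were among the 13819 genes with at least 1 FPKM in 1 library, in which Dbp stood at percentile 80.5 before puberty and 85.4 at puberty, and Per2 at percentile 15.4 and 20.2. Below Dbp came Nr1d2, Cry2 and Arntl in both libraries, each apart from its neighbours in that order beyond counting error. The genes of lower level were closer together. In the prepubertal library Nr1d1 lay 1.30-fold above Per1 (interval 1.13 to 1.498), whereas Per1, Per3 and Cry1 followed each other without being told apart. In the pubertal library Cry1, Per3, Nr1d1 and Per1 followed each other, and no neighbours among them were told apart. Per2 was lowest in both libraries, 1.67-fold below Per1 at puberty (1.44 to 1.93).

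**Figure D2:**
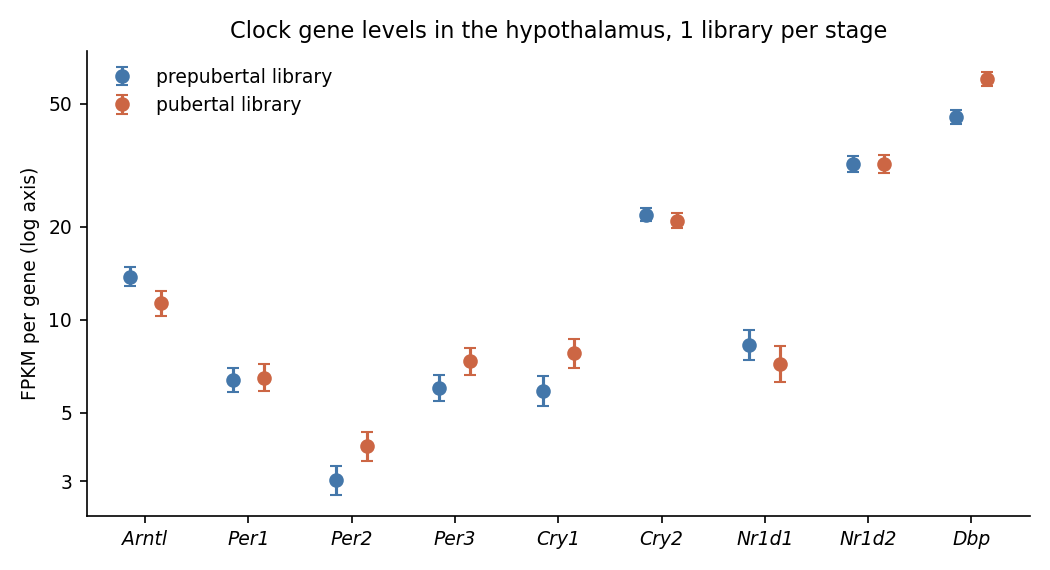
FPKM of the 9 clock genes in the prepubertal (blue) and pubertal (orange) library, on a log axis. Points are gene sums of 1 library per stage and bars are 95% Poisson intervals for counting error. Dbp is highest in both libraries at 45.4 and 60.2 FPKM, and Per2 lowest at 3.03 and 3.90 FPKM.

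No member differed by 1.5-fold or more in FPKM + 1 between the libraries as deposited, where 1.98% of the 13819 genes with at least 1 FPKM in 1 library were higher and 2.53% lower at puberty by that measure. When the pubertal library was scaled to equal Actb, 4 members were higher by 1.5-fold, as were 16.5% of the 13819 genes, and the median log2 ratio was 0.40 for the members and 0.36 for all these genes. The median log2 ratio of (pubertal FPKM + 1) over (prepubertal FPKM + 1) was 0.02 for the 9 members, with 6 above and 3 below 0 (4 above and 5 below after scaling by 9 reference genes or to equal mRNA totals, and 9 above and 0 below with equal Actb), and -0.01 over the 13819 genes, whose middle 90% lay between -0.46 and 0.40. For 4 members, Dbp, Cry1, Per2 and Per3, the counting interval of the FPKM ratio lay above 1, and for 1, Arntl, it lay below 1. In the FPKM as deposited it held 1 for Per1, Cry2, Nr1d1 and Nr1d2. Over 13661 genes with an interval, it lay above 1 for 19.7% and below 1 for 23.8%, so at this depth a small ratio often exceeded counting error. A scaling moves the members and all other genes together. With equal Actb the interval lay above 1 for 7 members and below 1 for 0, beside 70.7% and 2.14% of all genes. With 9 reference genes it lay above 1 for 3 members, no longer Per3, and below 1 for 3, beside 7.86% and 40.4%. With equal mRNA totals the counts were 4 and 3, beside 13.4% and 30.5%.

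**Figure D3:**
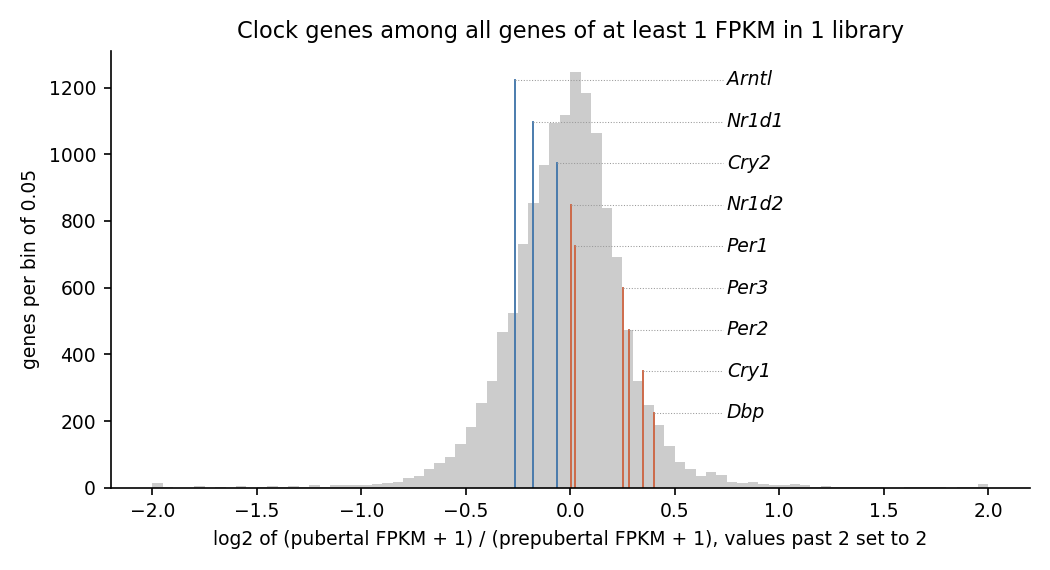
Distribution of the log2 ratio of FPKM + 1, pubertal over prepubertal, for the 13819 genes with at least 1 FPKM in 1 library (grey, bins of 0.05). Vertical lines mark the 9 clock genes, which lie between -0.27 for Arntl and 0.40 for Dbp, inside the bulk of all genes. Line heights only separate the names.

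Of the activators, Arntl (ENSRNOG00000014448) was listed at 13.8 FPKM before puberty and 11.3 FPKM at puberty, from 757 and 482 fragments. This was a ratio of 0.82 (0.73 to 0.92), or -0.27 on the log2 scale of FPKM + 1, and with Actb made equal between the libraries it turned to 0.11. The sum covered transcripts that were listed differently. ENSRNOT00000046313 was listed at 12.6 and 11.3 FPKM, a ratio of 0.90 whose interval held 1 (0.80 to 1.013). ENSRNOT00000019645 was listed at 1.24 FPKM from 72 fragments before puberty and at 0 at puberty. The counting interval of its ratio, which covers counting error in both libraries, ended at 0.067. Against a floor of 3 fragments at puberty, with the 72 fragments taken as exact, it was at least 18.8-fold lower. In FPKM both transcripts took about equal parts in the lower sum. The division of fragments between transcripts of 1 gene is an estimate, and its error is not covered by these values. Npas2, which can take the place of CLOCK beside BMAL1, was listed at 3.68 and 2.27 FPKM, a ratio of 0.62 (0.50 to 0.75). Arntl2, a paralogue of Arntl, stayed under 1 FPKM in both libraries, at 0.70 and 0.81 FPKM.

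The Per genes encode the scaffold of the repressor complex. Per1 (ENSRNOG00000007387) was listed at 6.38 FPKM before puberty and 6.498 FPKM at puberty, a ratio of 1.02 (0.89 to 1.17). Per2 (ENSRNOG00000020254) was listed at 3.03 and 3.90 FPKM, a ratio of 1.29 (1.11 to 1.498). Per3 (ENSRNOG00000018413) was listed at 6.02 and 7.36 FPKM, a ratio of 1.22 (1.06 to 1.41). Per2 and Per3 were thus higher in the pubertal library as deposited, and the values of Per1, which besides the E-box pathway is known as a gene induced rapidly by light and other stimuli, lay within counting error of each other. The ratio of Per1 to Per2 within a library, which no scaling of the libraries can alter, was 2.11 before puberty and 1.67 at puberty, a change of 0.79-fold (0.65 to 0.97).

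The cryptochromes are the stronger repressors of the pair. Cry1 (ENSRNOG00000006622) was listed at 5.89 FPKM before puberty and 7.78 FPKM at puberty, from 326 and 337 fragments, a ratio of 1.32 (1.13 to 1.54). Cry2 (ENSRNOG00000007478) was listed at 21.9 and 20.9 FPKM, a ratio of 0.96 (0.89 to 1.03). Cry2 was the more abundant paralogue in both libraries, and the paralogues moved closer. The ratio of Cry1 to Cry2 was 0.27 before puberty and 0.37 at puberty, a change of 1.38-fold (1.17 to 1.64).

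The nuclear receptors form the second loop. Nr1d1 (ENSRNOG00000009329), which encodes REV-ERB alpha, was listed at 8.28 FPKM before puberty and 7.20 FPKM at puberty, a ratio of 0.87 whose interval held 1 (0.73 to 1.03). Its values came from 1 transcript, ENSRNOT00000012537, while ENSRNOT00000055333 was listed at 0 in both libraries. Nr1d2 (ENSRNOG00000046912), which encodes REV-ERB beta, was listed at 32.0 FPKM in each library, a ratio of 1.002 (0.92 to 1.09). Nr1d2 exceeded Nr1d1 by 3.86-fold before puberty and 4.45-fold at puberty, and the change between these, 1.15-fold, had an interval that held 1 (0.95 to 1.40). The opposing activators of the same element are the ROR receptors. Rora was listed at 38.8 and 34.3 FPKM, a ratio of 0.88 (0.80 to 0.97), and Rorb at 20.2 and 21.6 FPKM, a ratio of 1.07 (0.94 to 1.23).

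Dbp (ENSRNOG00000021027), the output gene of the list, had the largest log2 ratio of FPKM + 1 among the 9 members in the FPKM as deposited, but after centring by transcript length it was 0.36, below Per2 at 0.41 and Cry1 at 0.40. It was listed at 45.4 FPKM before puberty and 60.2 FPKM at puberty, from 1288 and 1338 fragments, a ratio of 1.33 (1.23 to 1.43). Its log2 ratio of 0.40 was reached or exceeded by 5.04% of the 13819 genes. The value for Cry1 of 0.35 was reached or exceeded by 6.80%. Dbp and Arntl, which peak in opposite phases, differed in opposite directions in the FPKM as deposited. Nr1d1 and Per1, which run in the phase of Dbp, did not share its ratio, at 0.87 and 1.02 with intervals that held 1. The ratio of Dbp to Arntl within a library was 3.29 before puberty and 5.32 at puberty, a change of 1.62-fold (1.41 to 1.86) that no scaling of the libraries alters. With the major Arntl transcript alone the change was 1.47-fold (1.28 to 1.69). These within-library ratios of 4 gene pairs were chosen after the values were seen. Changes in them are not free of the trend with transcript length given below. Centring by length took the log2 ratio of Dbp from 0.40 to 0.36 and that of Arntl from -0.27 to -0.21.

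The relatives of Dbp did not share one direction. Tef, a further bZIP factor of the D-box, was listed at 80.8 and 89.6 FPKM, a ratio of 1.11 (1.07 to 1.15). Hlf, the third factor of this family, was lower, at 20.7 and 11.04 FPKM, a ratio of 0.53 (0.43 to 0.67). Nfil3, which represses through the D-box, was listed at 6.15 and 5.73 FPKM, a ratio of 0.93 (0.75 to 1.16). Among the repressors driven by E-boxes, Ciart was higher at 4.34 and 7.41 FPKM, a ratio of 1.71 (1.26 to 2.32) from 79 and 106 fragments. Bhlhe41 was listed at 11.6 and 14.0 FPKM, a ratio of 1.21 (1.001 to 1.47), and Bhlhe40 at 18.0 and 18.6 FPKM, a ratio of 1.03 (0.93 to 1.15).

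The full list of other clock and clock-output genes held 24 names, of which 23 were found and Fbxl21 was matched by no row. Of the 23 genes, 11 were higher and 12 lower at puberty, with a median log2 ratio of -0.01, against -0.01 over the 13819 genes. By 1.5-fold in FPKM + 1, 1 gene was higher, Ciart at 0.66, and 1 lower, Hlf at -0.85. Over the 13819 genes 1.98% were higher and 2.53% lower by that measure. Of the 20 genes with at least 1 FPKM in 1 library, the counting interval lay above 1 for 4 and below 1 for 8, where the shares over all genes were 19.7% and 23.8%. Of the 7 genes found for enzymes and adaptors that set the life of PER and CRY proteins, the interval lay below 1 for 4, above 1 for 1 and held 1 for the others. Csnk1d, the casein kinase that phosphorylates PER, was listed at 41.8 and 34.0 FPKM, a ratio of 0.81 (0.77 to 0.86). Csnk1e, its relative, was listed at 27.6 and 25.1 FPKM, a ratio of 0.91 (0.80 to 1.04).

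**Figure D4:**
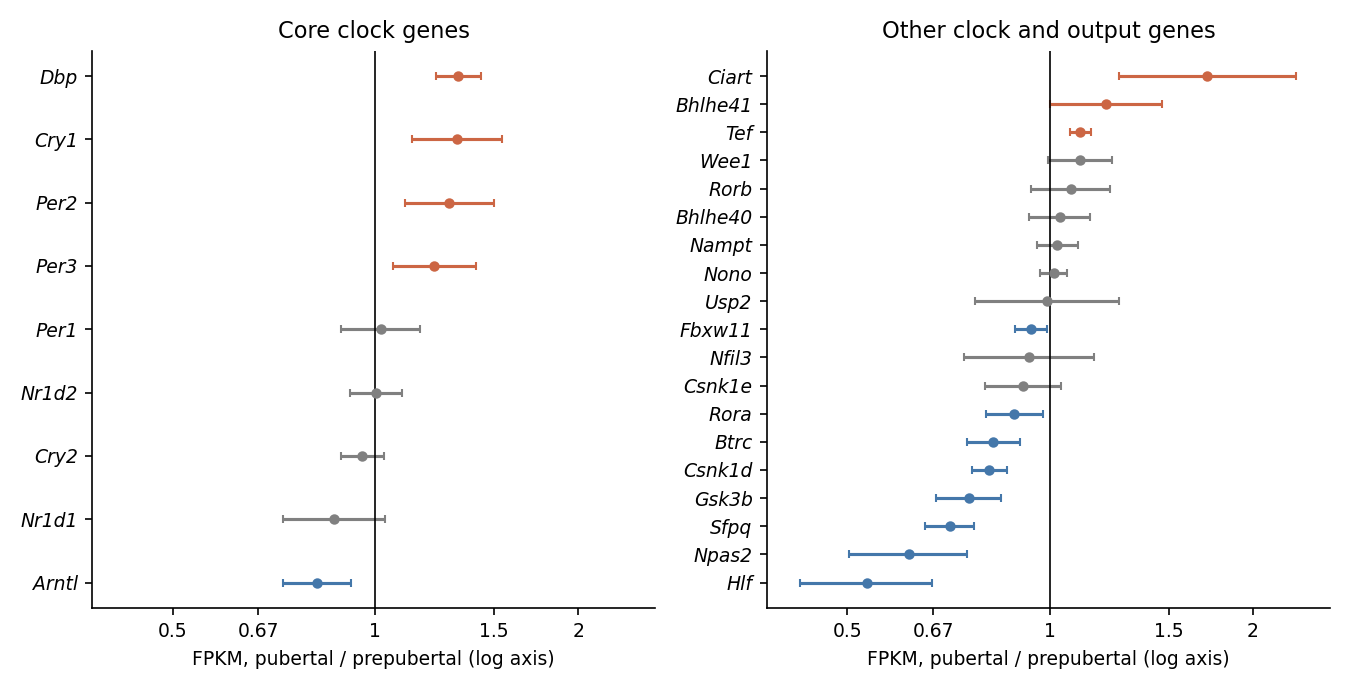
Ratio of FPKM, pubertal over prepubertal, on a log axis. The left side shows the 9 core clock genes. The right side shows 19 of the 20 other clock and output genes with at least 1 FPKM in 1 library. Points are ratios of 1 library to 1 library and bars 95% counting intervals. Orange marks intervals above 1, blue below 1 and grey those that hold 1. Dbp is at 1.33 and Arntl at 0.82, Ciart at 1.71 and Hlf at 0.53.

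The scaling of the libraries decided some of the directions. Dbp, Cry1, Per2 and Per3 had log2 ratios above 0 under each scaling tried and after centring by transcript length, with the lowest at 0.27, 0.24, 0.18 and 0.14, although with 9 reference genes the interval of Per3 held 1. Arntl, Cry2 and Nr1d1 were lower in the FPKM as deposited and turned to the higher side with Actb made equal, and Cry2 also after centring by length, at 0.012. Per1 and Nr1d2 were above 0 as deposited and turned below it after scaling by 9 reference genes, at -0.089 and -0.12, and to equal mRNA totals, at -0.028 and -0.054, and Nr1d2 also after centring by length, at -0.023. Actb itself was listed at 763 and 576 FPKM, and making it equal put a factor of 1.32 on the pubertal library, a shift of 0.41 (log2) in FPKM that is smaller in FPKM + 1. Ratios were lower for longer genes. The median log2 ratio was 0.09 in the shortest and -0.12 in the longest of 10 length classes, and Per2, with 5760 nt the longest member, had a log2 ratio of 0.28 before and 0.41 after centring.

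**Figure D5:**
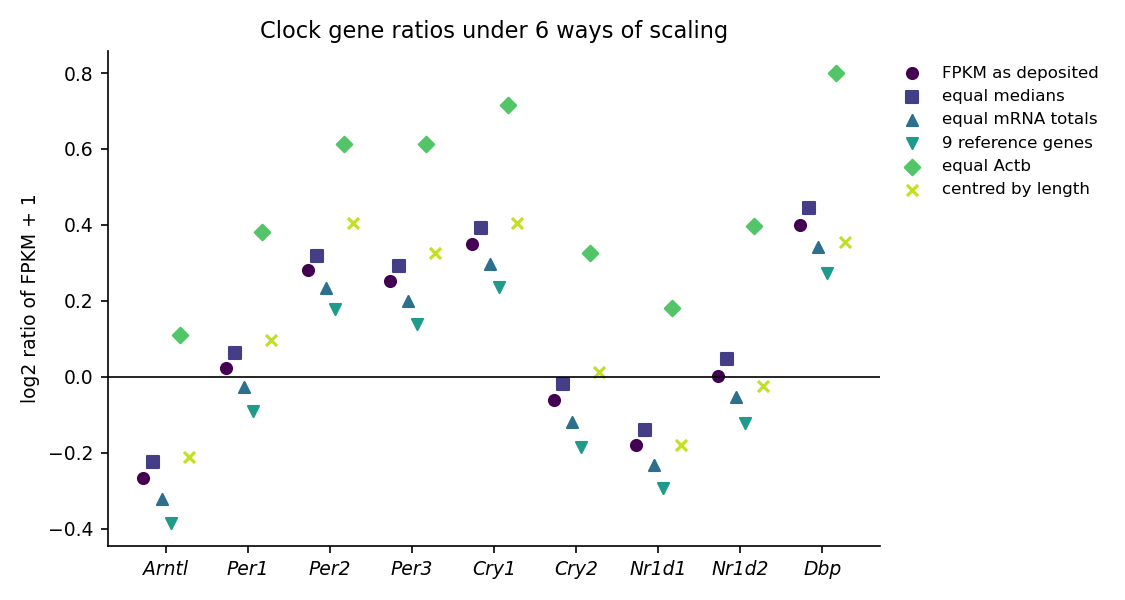
Log2 ratio of FPKM + 1, pubertal over prepubertal, of the 9 clock genes under 6 settings, namely FPKM as deposited, libraries made equal in median, in mRNA total, in 9 reference genes or in Actb, and ratios centred by length class. Per2, Per3, Cry1 and Dbp lie above 0 under all 6, with their lowest values between 0.14 and 0.27.

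Markers of the tissue and its neighbours were set beside these values. All 15 hypothalamic markers were above 0 in both libraries, led by Pmch at 1675 and 2723 FPKM, and for 10 of them the counting interval lay above 1 and for 0 below. Of the 15, 12 had a log2 ratio above 0 and 3 below. The FPKM of the 15 summed to 2827 before puberty and 4260 at puberty, a difference in which Pmch had the largest part. Markers of the suprachiasmatic nucleus summed to 349 and 331 FPKM, mainly through Avp, which other nuclei also express, and Prok2 was listed at 0 in both. Although the sum was lower, 6 of these markers had a log2 ratio above 0 and 3 below, and of 7 with an interval it lay above 1 for 1 and below 1 for 1. Vip, the peptide of the core of that nucleus, was listed at 19.7 and 22.8 FPKM, a ratio of 1.16 (1.02 to 1.32), and Rgs16 at 44.6 and 34.5 FPKM, a ratio of 0.77 (0.64 to 0.93). Cortical and hippocampal markers summed to 34.2 and 16.9 FPKM, with 5 log2 ratios below 0 and 2 above. The interval lay below 1 for all 3 that had one, of which 1 reached 1 FPKM in the prepubertal library alone. Thalamic markers summed to 199.96 and 155.8 FPKM, with the interval below 1 for 6 of 6, Rora being in both this list and the clock list. Npas2 and Hlf, lower like these markers, are known from cortex and other forebrain regions too, and the part of tissue outside the hypothalamus in their values was not tested. Immediate early genes summed to 53.6 and 48.6 FPKM, and of 7 with an interval it lay below 1 for 4 and above 1 for 1. Of the genes induced by glucocorticoids, a class that includes Per1, the interval lay above 1 for 5 of 8 and below 1 for 1, with sums of 279.6 and 360.5 FPKM, led in ratio by Sgk1. Red blood cell markers had the interval above 1 in 6 of 6, with sums of 6839 and 13086 FPKM. Pituitary markers summed to 31.8 and 44.5 FPKM, with 5 log2 ratios above 0 and 2 below. Of 5 with an interval it lay above 1 for 2 and below 1 for 0. Those 2 reached 1 FPKM in the pubertal library alone, so the filter favoured that direction. Choroid plexus markers summed to 36.9 and 32.3 FPKM, with 1 of 5 above and 1 below, and 4 of 6 log2 ratios above 0 against the direction of the sum. Oligodendrocyte markers summed to 12984 and 14007 FPKM with 4 intervals above 1 and 4 below, astrocyte markers to 1921 and 1836 FPKM with 3 and 3, and endothelial markers to 136.8 and 142.5 FPKM with 2 and 3. Over all genes the shares were the 19.7% above and 23.8% below given before. The part of these lists in the clock gene values was not tested.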

How the data were processed

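Total RNA of the hypothalamus was depleted of ribosomal RNA and sequenced as strand-specific paired-end libraries. According to the methods the reads were aligned with TopHat and assembled with Scripture and Cufflinks. The authors estimated FPKM per transcript with Cuffdiff (version 2.1.1 in the submitters' processing notes, which name the build Rnor_5.0, while the methods link a later annotation), and deposited 1 column of FPKM per stage. The deposited comparison table, from which gene names and transcript lengths were taken, also holds log2 ratios, p-values and q-values of the authors' own comparison, which were not used. The lncRNA tables were not used.

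FPKM were summed per gene name and log2((pubertal + 1) / (prepubertal + 1)) was computed, a scale that understates the change of low genes. Fragment numbers were recovered from the FPKM steps with a fitted mean fragment length of 258 and 252 nt. Intervals for levels are exact Poisson intervals, for ratios between libraries or genes exact binomial intervals, and for changes of a within-library ratio normal intervals on the log scale, all at 95%. The recovery was tested on simulated data. The design foresaw no count-based intervals, and they were added after the data were examined. Alternatives were a pseudocount of 0.1, a minimum of 1 FPKM, the highest transcript per gene, 4 scalings, centring in 10 length classes, the FPKM of the comparison table and a 2-fold threshold.

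The members and lists were chosen with earlier results of these data known. Named were all members, all other clock genes past 1.5-fold with Npas2, Rora, Rorb, Tef, Hlf, Nfil3, Bhlhe40, Bhlhe41 and Ciart, and at most the highest gene and that of the largest ratio of each marker list, of which Pmch, Avp and Sgk1 are given. Arntl2, Csnk1d, Csnk1e, Timeless, Vip, Prok2 and Rgs16 were added after their values were seen. The values of 2 genes of the clock-output list are counted but not reported here by name. The tools were matplotlib 3.10.9, scipy 1.17.1, pandas 2.3.3 and numpy 2.4.6 under Python 3.11.15.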

Additional observations from a re-analysis of the deposited data

How the results depend on the processing

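The pseudocount, filter, transcript, scaling, length and table alternatives were applied to the median and the 1.5-fold counts of the 9 clock genes, to each gene and to the median of the other clock genes. The 2-fold threshold was applied to the counts past 1.5-fold alone, and the counts by counting interval were repeated under the scalings and length centring alone. Scaling to equal Actb moved most values. The median log2 ratio of the clock genes became 0.40 and that of the other clock genes 0.28, 4 clock genes were higher by 1.5-fold in place of 0 (16.5% of all genes at that scaling), and the counting interval lay above 1 for 7 (70.7% of all genes) and below 1 for 0 (2.14%). Scaling by 9 reference genes, a factor of 0.91 on the pubertal library, gave medians of -0.089 and -0.12 and 3 clock genes with an interval below 1 (40.4% of all genes), as did equal mRNA totals with 3 (30.5%). The 3 genes were Arntl, Cry2 and Nr1d1 in both cases. With 9 reference genes the interval of Per3 held 1, and 3 genes lay above 1. Of 81 values of single clock genes under 9 alternatives, 26 could not move, since the filter removed no member, the comparison table holds identical FPKM and the choice of transcript altered only Arntl. Of the other 55, 44 stayed within the half-width of their counting interval and 11 moved beyond it, and 9 changed sign. No count of clock genes past 1.5-fold changed with the pseudocount, the choice of transcript, the other scalings or the length classes. The filter, the comparison table and the stricter 2-fold threshold could not change these counts of 0. No paired analysis was possible because each stage has 1 library, and no library could be left out for the same reason. The depth limits Arntl2 and Timeless, which rest on 21 and 73 fragments before puberty.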
